A study of Homo sapiens with 4 samples.

Results

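Adrenergic neuroblastoma cells are held in a noradrenergic nerve cell state by a small set of transcription factors that bind each other's enhancers, an arrangement called a core regulatory circuit. The genes described here are 8 factors of that circuit (PHOX2A, HAND2, GATA2, GATA3, ISL1, TBX2, TFAP2B and LMO1), taken as the rows of a gene count table whose Ensembl identifiers carry these symbols. All 8 were found among 64252 gene rows, and all 8 were abundant enough to be tested, among 19093 genes. They were measured by RNA sequencing in SK-N-BE(2), an established human neuroblastoma line with amplified MYCN. Both groups were this line transfected with a short hairpin RNA (shRNA): a scramble sequence in 2 control libraries, and a sequence against IRF2BP2, a transcriptional co-regulator, in the other 2. The labels name neither a clone, nor a time after transfection, nor separate cultures, so the p-values rest on library-to-library spread that may be no more than technical. The comparison addresses how the circuit's transcripts differ between the shRNAs. Other effects of the IRF2BP2 shRNA cannot be told apart from those of lowered IRF2BP2 here.

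The factors work in different ways. PHOX2A and ISL1 bind DNA through homeodomains, HAND2 through a basic helix-loop-helix domain shared with an E protein, GATA2 and GATA3 through zinc fingers, TFAP2B as an AP-2 dimer and TBX2, mostly a repressor, through a T-box. LMO1 has LIM domains but no DNA-binding domain of its own and joins other factors into complexes, and its locus is a known neuroblastoma susceptibility locus. In developing sympathetic neurons PHOX2, HAND2 and GATA factors switch on the enzymes of noradrenaline synthesis.

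Libraries held between 30847699 and 34684651 counts, and IRF2BP2 itself fell with its shRNA (log2 fold change -1.44, edgeR quasi-likelihood adjusted p = 5.87e-10). Levels below are in CPM, that is, counts divided by the library total after scaling by TMM, a trimmed mean of gene ratios. Of the circuit's own transcripts, HAND2 had the highest mean in the scramble libraries, 888 ± 77.9 CPM (SD, n = 2), and LMO1 the lowest, 13.9 ± 0.46 CPM. These are the genes under study, so they were not taken as a check of what the cells are. The 5 Schwann cell markers were low and summed to 1.99 and 1.98 CPM with scramble and 2.88 and 2.59 CPM with the IRF2BP2 shRNA, and SOX10 had at most 1 count in a library. Leukocyte markers summed to 4.38 and 6.96 CPM with scramble and 3.72 and 3.06 CPM with the IRF2BP2 shRNA, with CD3E and LYZ at 0 in all libraries, and endothelial markers to between 0.87 and 1.53 CPM over the 4 libraries, with PECAM1 at 0. The sum of the 5 fibroblast markers was not low, at 300.1 and 286 CPM with scramble and 221 and 219 CPM with the IRF2BP2 shRNA. Most of this was PDGFRB, with a mean of 172 CPM with scramble, and LUM, with 105 CPM. The other fibroblast markers were low with scramble, with means of 9.12 CPM for DCN, 6.88 CPM for COL1A1 and 0.28 CPM for COL1A2. Mitochondrially encoded genes held 7.27% and 7.10% of counts with scramble and 6.42% in both IRF2BP2 shRNA libraries. The part of these differences in the results was not tested.

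Of the 8 factors, 5 fell with the IRF2BP2 shRNA, 2 rose and 1 did not pass the test. These counts stand beside 42.0% of all genes tested that passed, 20.6% of them higher and 21.4% lower (edgeR quasi-likelihood test, Benjamini-Hochberg adjusted p under 0.05). The median log2 fold change was -0.59 over the 8 factors and -0.01 over all genes tested. The median size of the change, whatever its sign, was 0.65 against 0.31 over all genes. Counts of the 8 factors together made up 0.250% and 0.265% of the scramble libraries, against 0.206% and 0.208% with the IRF2BP2 shRNA. In all 8 the libraries of the groups did not overlap, as in 70.4% of all genes tested. Lower libraries throughout were seen for 5 factors (36.0% of all genes) and higher ones for 3 (34.4%).

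**Figure D1:**
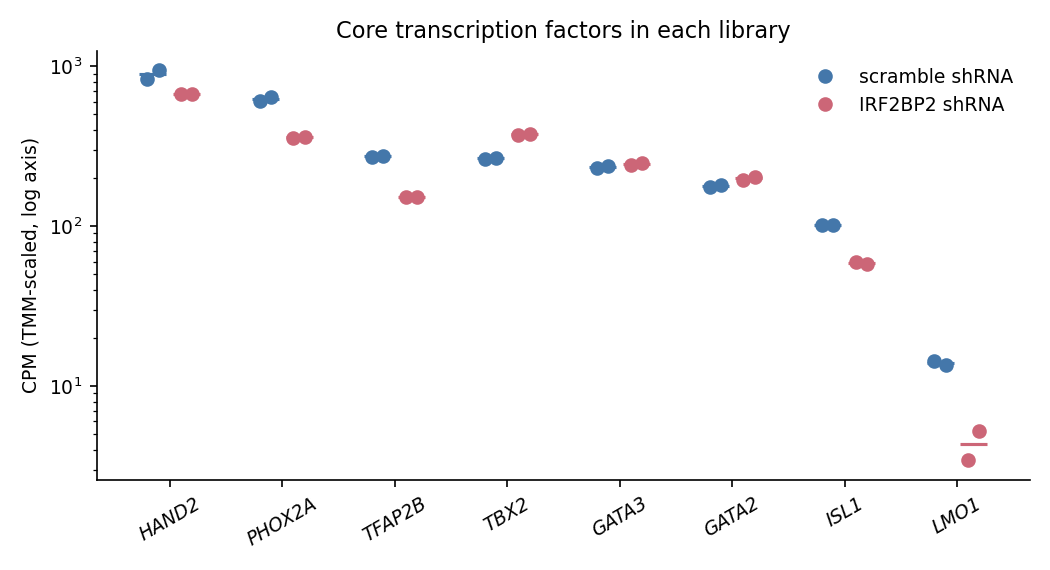
TMM-scaled CPM (log axis) of the 8 core transcription factors in each library. Points are libraries (2 with scramble, 2 with IRF2BP2 shRNA) and short lines are group means. PHOX2A, HAND2, TFAP2B, ISL1 and LMO1 lie lower with the IRF2BP2 shRNA, TBX2 lies higher, and the points of GATA2 and GATA3 lie close together.

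Promoter sequence is shown for 5 factors: HAND2 and ISL1, which share their start region with a transcript on the other strand; LMO1, the steepest fall; and GATA2 and GATA3, close relatives that did not fall. The stretches come from RefSeq (GRCh38.p14) and lie before the start of each gene, on its own strand, trimmed to bases outside every annotated exon. A window was found for 7 of the 8 factors. Both strands of each window were searched for short motifs of the circuit's own factor families. GATAA stood for GATA proteins, with the longer form AGATAA counted as well, so that matches of these overlap. For a HAND and E protein pair the motif was CATCTG, and for MYC proteins it was CACGTG. The AP-2 motif was GCCNNNGGC and the T-box motif was AGGTGTGA. Homeodomain proteins were represented by TAATTA, and the LIM homeodomain protein ISL1 by CTAATG. Capitals mark the matches.
HAND2, chr4:173530230-173530370, minus strand: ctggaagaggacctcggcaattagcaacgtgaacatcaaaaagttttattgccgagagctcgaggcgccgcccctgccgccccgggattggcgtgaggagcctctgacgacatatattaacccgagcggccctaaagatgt
ISL1, chr5:51383333-51383390, plus strand: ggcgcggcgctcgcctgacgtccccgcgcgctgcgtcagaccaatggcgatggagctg
LMO1, chr11:8268788-8269037, minus strand: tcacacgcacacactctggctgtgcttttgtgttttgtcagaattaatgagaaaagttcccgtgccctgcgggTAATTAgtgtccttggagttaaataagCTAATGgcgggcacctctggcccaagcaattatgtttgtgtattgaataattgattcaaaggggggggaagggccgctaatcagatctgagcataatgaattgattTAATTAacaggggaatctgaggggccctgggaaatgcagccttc
GATA2, chr3:128493202-128493451, minus strand: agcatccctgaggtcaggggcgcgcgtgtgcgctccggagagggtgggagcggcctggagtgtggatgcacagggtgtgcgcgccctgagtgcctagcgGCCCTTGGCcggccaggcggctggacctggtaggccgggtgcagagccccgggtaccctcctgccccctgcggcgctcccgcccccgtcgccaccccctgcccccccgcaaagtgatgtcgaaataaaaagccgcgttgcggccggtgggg
GATA3, chr10:8045083-8045332, plus strand: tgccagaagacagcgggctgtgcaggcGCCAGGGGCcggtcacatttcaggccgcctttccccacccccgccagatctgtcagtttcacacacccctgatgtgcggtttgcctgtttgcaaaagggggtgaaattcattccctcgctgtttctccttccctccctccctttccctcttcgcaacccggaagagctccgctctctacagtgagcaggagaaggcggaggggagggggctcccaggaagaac

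The LMO1 stretch held TAATTA at 2 places and CTAATG at 1, and the GATA2 and GATA3 stretches each held GCCNNNGGC once. No searched motif lay in the short HAND2 and ISL1 stretches. Counted over whole windows of 250 bases before and 50 after each RefSeq start, GATAA was found in 3 of the 13 windows of the members (HAND2, ISL1 and 1 of the GATA3 windows), a share close to the 22.7% of all 35116 windows with a match. GCCNNNGGC was found in 5 of the 13 windows, both of GATA2 and 3 of the GATA3 windows, against 23.2% of all windows. All 5 come from 2 genes, and windows of the same gene are not independent. TAATTA lay in the HAND2 and LMO1 windows (4.84% of all windows) and CATCTG in the TFAP2B window alone among the members (14.7%). CTAATG lay in the LMO1 window alone (6.49% of all), AGATAA in the HAND2 and ISL1 windows (10.3%) and CACGTG in 1 GATA3 window (7.26%). The PHOX2A window held none of the motifs, and no member window held AGGTGTGA (0.98% of all). These are matches of letters and do not show that a factor binds.

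The homeodomain genes fell by almost the same amount. PHOX2A (ENSG00000165462, chromosome 11 from 72239077 to 72245664, minus strand of GRCh38), which drives noradrenergic fate, had 603 and 643 CPM with scramble against 358 and 362 CPM with the IRF2BP2 shRNA. Both IRF2BP2 shRNA libraries lay far below both scramble libraries. The log2 fold change was -0.79 (standard error 0.04, edgeR adjusted p = 6.46e-08), or 1.73-fold lower. ISL1 (ENSG00000016082, chromosome 5 from 51383391 to 51394738), a LIM homeodomain factor of sympathetic and motor neurons, had 102 and 101 CPM with scramble and 59.3 and 58.2 CPM with the IRF2BP2 shRNA. Its libraries within each group differed by little, and the groups were well apart (log2 fold change -0.79, standard error 0.05, edgeR adjusted p = 1.54e-07). Their sizes of change lay above those of 81.7% and 81.8% of all genes tested.

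TFAP2B (ENSG00000008196, chromosome 6 from 50818723 to 50847613), an AP-2 factor of the neural crest, fell slightly more. It had 272 and 274 CPM with scramble against 151 and 153 CPM with the IRF2BP2 shRNA. The replicates of each group were nearly equal, and the groups did not overlap (1.79-fold lower, log2 fold change -0.84, standard error 0.04, edgeR adjusted p = 2.49e-08).

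HAND2 (ENSG00000164107, chromosome 4 from 173524969 to 173530229, minus strand), whose protein binds E-box sites beside the other factors of the circuit, fell less. Its level was 833 and 943 CPM with scramble and 672 and 674 CPM with the IRF2BP2 shRNA. The scramble libraries were further apart than those of any other member in CPM, but both were above the IRF2BP2 shRNA libraries. The log2 fold change was -0.40 (standard error 0.06, edgeR adjusted p = 5.38e-04), and it lay between -0.48 and -0.31 when a library was left out.

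LMO1 (ENSG00000166407, chromosome 11 from 8224304 to 8268716, minus strand), the LIM-only cofactor, had the steepest fall and the lowest level. It had 495 and 418 counts with scramble (14.3 and 13.6 CPM) and 110 and 168 counts with the IRF2BP2 shRNA (3.44 and 5.24 CPM). The groups did not overlap, but the IRF2BP2 shRNA libraries differed from each other: their exact Poisson 95% intervals were 2.83 to 4.14 CPM and 4.48 to 6.10 CPM, which cover counting error only. The log2 fold change was -1.68 (standard error 0.19, edgeR adjusted p = 3.80e-05), a fall 3.21-fold in size that lay above 95.4% of all genes tested. Without a library it lay between -2.01 and -1.41. Counting intervals of replicates were also apart in the scramble libraries of HAND2 (823.8 to 843.1 and 932.7 to 954.4 CPM). The same held for PHOX2A with scramble (594.7 to 611.0 and 633.7 to 651.7 CPM).

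The GATA factors did not fall. GATA2 (ENSG00000179348, chromosome 3 from 128479427 to 128493185, minus strand), a zinc finger factor also central to blood stem cells, had 175 and 180 CPM with scramble and 196 and 204 CPM with the IRF2BP2 shRNA. The groups were apart by more than the spread within them, and GATA2 rose by a log2 fold change of 0.17 (standard error 0.04, edgeR adjusted p = 0.00581). Without IRF2BP2 shRNA replicate 2 the call was lost (edgeR adjusted p = 0.0731), and it was lost against a null change of 1.2-fold (edgeR glmTreat adjusted p = 1.0). GATA3 (ENSG00000107485, chromosome 10 from 8045378 to 8075203), needed for sympathetic neuron development and for T cells, had 232 and 236 CPM with scramble and 240 and 249.7 CPM with the IRF2BP2 shRNA. Its log2 fold change of 0.06 did not pass the test (standard error 0.04, edgeR adjusted p = 0.237), and its approximate 95% interval ran from -0.01 to 0.14. That interval leaves out falls of the size seen for PHOX2A, ISL1 or TFAP2B. The GATA2 count was 0.754 and 0.763 times the GATA3 count with scramble and 0.816 and 0.817 times with the IRF2BP2 shRNA, ratios that did not overlap (exact two-sided permutation p = 0.333, the smallest that 2 libraries against 2 can give).

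TBX2 (ENSG00000121068, chromosome 17 from 61399896 to 61409466), a T-box repressor of cell cycle inhibitor genes, rose. It had 264 and 267 CPM with scramble and 373 and 379 CPM with the IRF2BP2 shRNA. Both IRF2BP2 shRNA libraries were well above both scramble libraries (1.42-fold, log2 fold change 0.50, standard error 0.04, edgeR adjusted p = 1.21e-06). It was the clearest rise among the 8, and left-out libraries moved it only between 0.49 and 0.52.

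**Figure D2:**
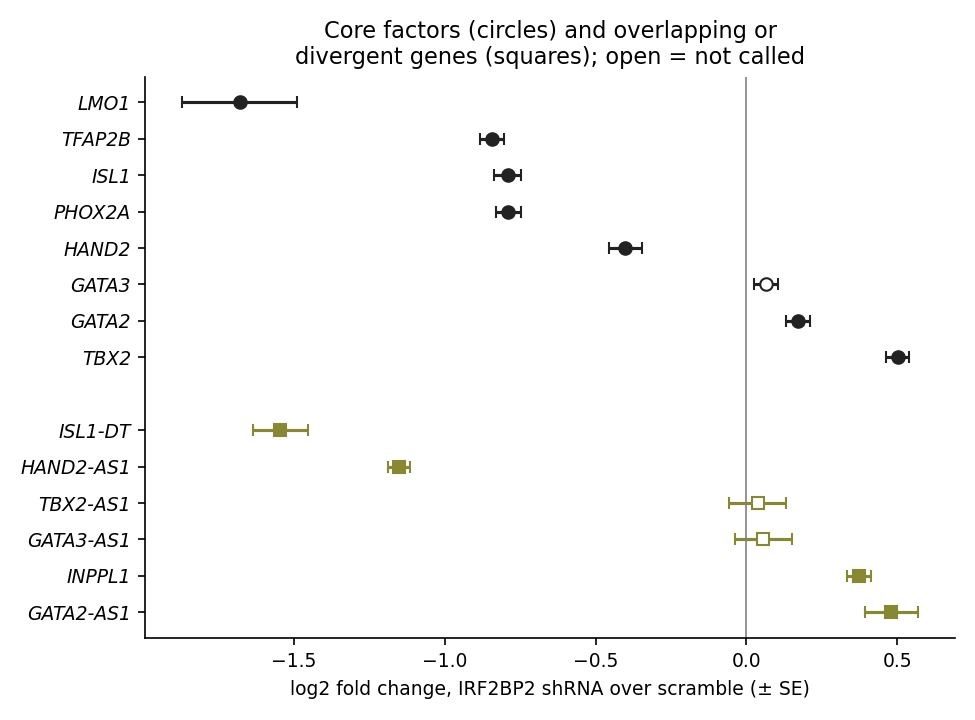
Log2 fold changes (IRF2BP2 shRNA over scramble, ± standard error) of the 8 core factors (circles) and of genes that overlap them or start beside them on the other strand (squares). Open symbols did not pass the test. LMO1 has the lowest value among the factors (-1.68) and TBX2 the highest (0.50), and the falls of HAND2-AS1 (-1.15) and ISL1-DT (-1.55) are steeper than those of HAND2 and ISL1.

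Divided by exon length, the levels can be set beside each other. With scramble, PHOX2A led at 349 ± 15.8 CPM per kilobase of annotated exon (SD, n = 2), followed by HAND2 at 247 ± 21.6 and GATA3 at 68.1 ± 0.96. TFAP2B (44.4 ± 0.29), TBX2 (44.0 ± 0.43), GATA2 (39.8 ± 0.90) and ISL1 (35.3 ± 0.16) followed in CPM per kilobase, and LMO1 stood last at 8.24 ± 0.27. Only the libraries of TFAP2B and TBX2 overlapped among neighbours in this order. With the IRF2BP2 shRNA PHOX2A (202 ± 1.64) and HAND2 (187 ± 0.45) stood close to each other, and TFAP2B, at 24.7 ± 0.19 CPM per kilobase, dropped from the fourth place to the sixth, behind TBX2 (62.3 ± 0.76) and GATA2 (44.8 ± 1.34). No neighbours overlapped in that order. The order depends on the exons counted as length: with those of the basic annotation only, an alternative chosen after seeing the data, HAND2 (242 CPM per kilobase) led PHOX2A (212 CPM per kilobase) with the IRF2BP2 shRNA, and TBX2 stood the third in both groups.

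The make-up of the set shifted with these levels. Of the summed CPM per kilobase of the 8 factors, PHOX2A took 41.8% and 41.7% in the scramble libraries and 32.9% and 32.8% in the IRF2BP2 shRNA libraries. HAND2 kept a like share, 28.6% and 30.3% against 30.6% and 30.2%. TBX2 went from 5.41% and 5.13% to 10.1% in both IRF2BP2 shRNA libraries. GATA3, whose own change did not pass the test, went from 8.35% and 7.96% to 11.4% and 11.7%. The sum itself was 808 and 864 CPM per kilobase with scramble and 610 and 620 CPM per kilobase with the IRF2BP2 shRNA.

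**Figure D3:**
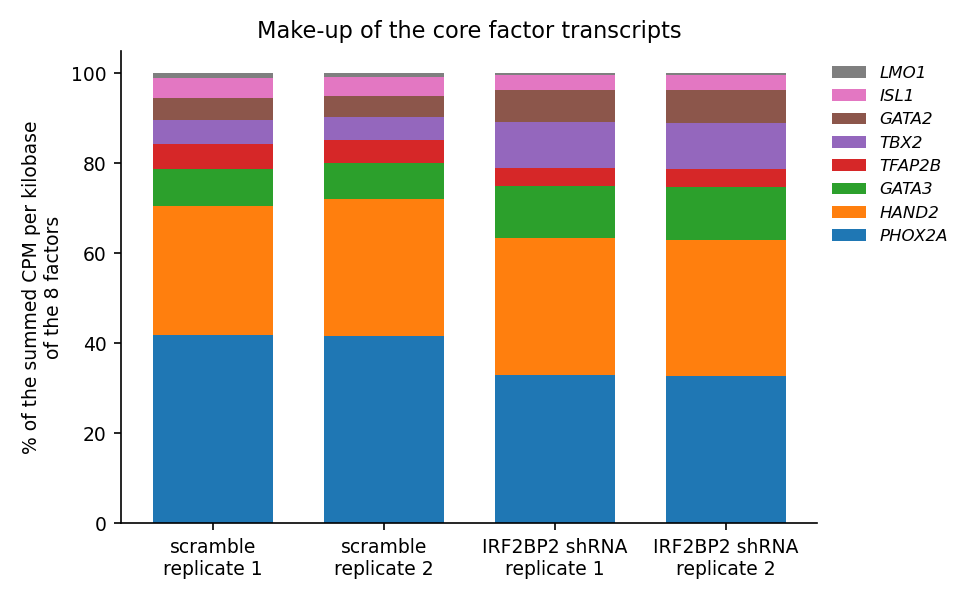
Share of each factor in the summed CPM per kilobase of annotated exon of the 8 core factors, in percent, with a stacked bar for each library. The share of PHOX2A is 41.8% and 41.7% with scramble and 32.9% and 32.8% with the IRF2BP2 shRNA, and the segments of TBX2, GATA3 and GATA2 widen.

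Transcripts that share a locus with a factor had larger fitted changes than the factor itself at HAND2, ISL1 and GATA2, and at TBX2 a transcript of few counts had a larger one in the opposite direction. HAND2-AS1 is a long noncoding RNA on the opposite strand. Its annotated start lies inside HAND2, 2959 bases from the HAND2 start, and it runs across that start. HAND2-AS1 had 590 and 585 CPM with scramble and 262 and 267 CPM with the IRF2BP2 shRNA. It fell by 1.15 on the log2 scale (edgeR adjusted p = 1.73e-09), while HAND2 fell by 0.40. The HAND2 count was 1.41 and 1.61 times the HAND2-AS1 count with scramble and 2.57 and 2.53 times with the IRF2BP2 shRNA. These ratios did not overlap between groups, but with 2 libraries against 2 an exact two-sided permutation test cannot go below p = 0.333, the value it gave (adjusted p = 0.429 over the 9 ratios compared). The kit does not mark strand, and 867 of the 3601 exon bases of HAND2 lie in exons of HAND2-AS1, so reads there cannot be assigned. Per kilobase HAND2-AS1 stood at 27.7 ± 0.18 CPM with scramble and 12.5 ± 0.16 CPM with the IRF2BP2 shRNA (SD, n = 2), and its part in the fall of HAND2 was not tested.

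ISL1-DT, a noncoding transcript that starts 59 bases from ISL1 and runs the other way, shares no exon base with it. It was picked for its position after its values were seen. It had 31.3 and 32.4 CPM with scramble and 11.4 and 10.4 CPM with the IRF2BP2 shRNA, and fell by 1.55 on the log2 scale (edgeR adjusted p = 1.79e-07). The ISL1 count was 3.26 and 3.13 times the ISL1-DT count with scramble and 5.20 and 5.60 times with the IRF2BP2 shRNA (exact permutation p = 0.333, the smallest possible; adjusted p = 0.429). At HAND2 and ISL1 alike, the noncoding transcript fell further than the coding gene, by 0.755 and 0.756 on the log2 scale of the ratio. When a library was left out, these values lay between 0.659 and 0.851 at HAND2 and between 0.703 and 0.809 at ISL1. The HAND2 ratio includes reads of the exon bases shared with HAND2-AS1.

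At GATA2 the antisense gene GATA2-AS1, whose exons do not overlap those of GATA2, rose from 18.5 and 20.2 CPM to 26.2 and 27.8 CPM (log2 fold change 0.48, edgeR adjusted p = 0.00103). GATA3-AS1 had 22.5 and 26.5 CPM with scramble and 25.8 and 25.0 CPM with the IRF2BP2 shRNA, groups that overlapped (log2 fold change 0.06, edgeR adjusted p = 0.675). TBX2-AS1, which spans all of TBX2 without sharing exon bases, had 20.4 and 23.9 CPM against 23.1 and 22.3 CPM (log2 fold change 0.04, edgeR adjusted p = 0.792). Its groups overlapped too, while TBX2 rose. GATA2-AS1, GATA3-AS1 and TBX2-AS1 overlap the spans of GATA2, GATA3 and TBX2 by 3974, 3035 and 9571 bases. As the kit does not mark strand, intron reads of the coding genes there cannot be told from reads of the antisense genes. Their part in these values was not tested. A further antisense gene at the TBX2 start, ENSG00000267131, had 15 and 21 counts with scramble and 3 and 4 with the IRF2BP2 shRNA. Its call (log2 fold change -2.30, edgeR adjusted p = 0.0157) did not hold when scramble replicate 2 (edgeR adjusted p = 0.185), IRF2BP2 shRNA replicate 1 (0.106) or IRF2BP2 shRNA replicate 2 (0.0720) was left out. INPPL1, a lipid phosphatase gene that shares 29 exon bases with PHOX2A on the other strand, rose by 0.37 on the log2 scale (edgeR adjusted p = 2.06e-05), against the direction of PHOX2A.

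Close relatives of the core factors rose where they were called. Of 19 family members, 12 were tested, 6 rose, 0 fell and 6 did not pass (edgeR), with a median log2 fold change of 0.60 over the tested ones. The number called is close to the 42.0% of all genes that passed (20.6% higher, 21.4% lower). With the filter on low values a gene near 0 in 1 group can be tested only because it is high in the other, so this median is a description. HAND1, the relative of HAND2, rose from 165 and 177 CPM to 226 and 222 CPM (log2 fold change 0.39, edgeR adjusted p = 3.22e-05), and the ratio of HAND1 to HAND2 counts went from 0.197 and 0.188 to 0.336 and 0.329. TBX3 rose with TBX2, from 106 and 108 CPM to 152 and 145 CPM (log2 fold change 0.47, edgeR adjusted p = 3.19e-06), and the ratio of TBX2 to TBX3 counts was 2.48 ± 0.02 with scramble and 2.54 ± 0.12 with the IRF2BP2 shRNA (SD, n = 2; exact permutation p = 1.0). TBX20, a heart T-box gene, rose by 0.84 on the log2 scale (edgeR adjusted p = 0.00297).

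GATA4 and GATA6, factors of heart and endoderm, rose from very low levels. GATA4 had 19 and 11 counts with scramble and 217 and 188 with the IRF2BP2 shRNA (log2 fold change 3.78, standard error 0.28, edgeR adjusted p = 1.15e-06). GATA6 had 12 and 12 counts with scramble and 104 and 91 with the IRF2BP2 shRNA (log2 fold change 3.04, standard error 0.33, edgeR adjusted p = 2.30e-05). Per kilobase they stayed far under the core pair: GATA4 reached 1.42 ± 0.15 CPM and GATA6 0.77 ± 0.07 CPM, against 44.8 ± 1.34 CPM for GATA2 and 71.2 ± 2.06 CPM for GATA3 (SD, n = 2). LMO4 rose by 0.47 on the log2 scale (edgeR adjusted p = 0.0102; 0.0624 without IRF2BP2 shRNA replicate 1, and 0.0718 by glmTreat against 1.2-fold). Per kilobase LMO1 stood above LMO4 with scramble, 8.24 ± 0.27 against 5.35 ± 0.88 CPM, and below it with the IRF2BP2 shRNA, 2.57 ± 0.76 against 7.39 ± 0.54 CPM. TFAP2C, TFAP2D and TFAP2E reached at most 0.44 CPM per kilobase in a library, against 24.6 or more for TFAP2B, and TFAP2A was too low to be tested.

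**Figure D4:**
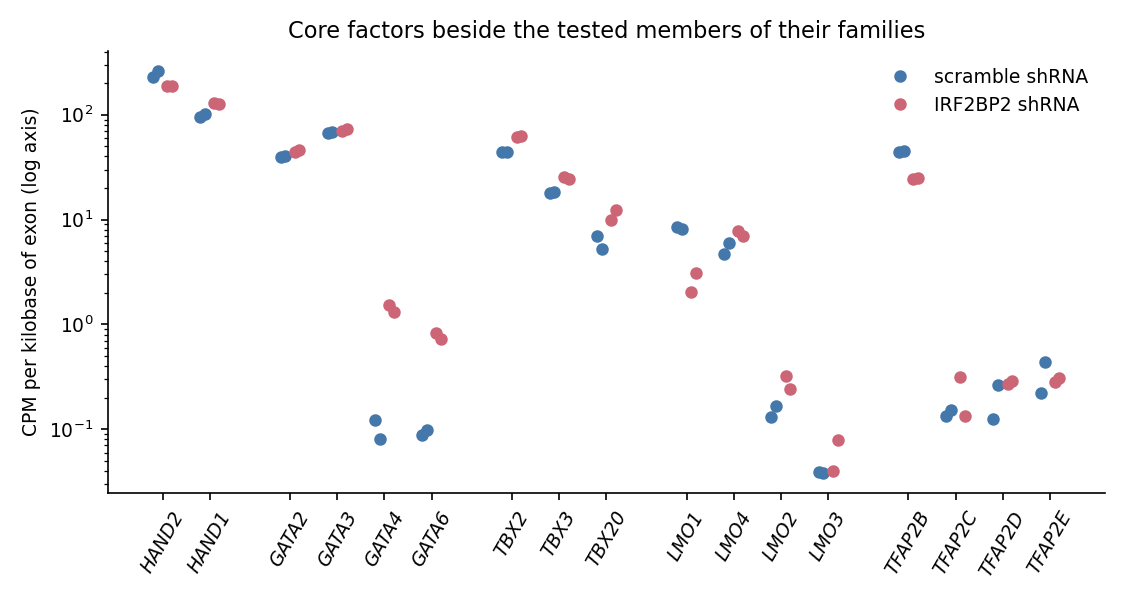
CPM per kilobase of exon (log axis) of core factors beside tested members of their families. PHOX2A and ISL1 are not drawn, nor is TBX1, which was tested and did not pass (log2 fold change 0.58, edgeR adjusted p = 0.392). Points are libraries. HAND1, TBX3, TBX20, LMO4, GATA4 and GATA6 lie higher with the IRF2BP2 shRNA, and GATA4 and GATA6 stay below GATA2 and GATA3 in every library.

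Genes for proteins that bind the core factors moved both ways. Of 18 partners, 16 were tested, 3 rose, 5 fell and 8 did not pass (edgeR; median log2 fold change -0.06). That number of calls is close to the 42.0% of all genes that passed. The E proteins that pair with HAND2 were unequal: TCF12 fell by 0.84 and TCF4 by 0.61 on the log2 scale (edgeR adjusted p = 2.78e-07 and 3.67e-07), while TCF3 had a log2 fold change of -0.06 and did not pass. The FOG cofactors of GATA proteins moved in opposite directions. ZFPM1 (FOG1) rose from 19.9 and 17.5 CPM to 81.7 and 82.9 CPM (log2 fold change 2.14, edgeR adjusted p = 3.02e-09), and ZFPM2 (FOG2) fell by 1.11 on the log2 scale (edgeR adjusted p = 9.17e-04). Among the LIM-binding proteins that LMO1 and ISL1 use, LDB1 (-0.22) and LDB2 (-0.47) fell on the log2 scale and their partner SSBP4 rose (0.55). Against a null change of 1.2-fold the calls of LDB1 and LDB2 were lost (edgeR glmTreat adjusted p = 0.912 and 0.0563). CITED2, a coactivator partner of AP-2 proteins, rose by 0.97.

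Other regulators listed for the adrenergic state mostly fell. Of 16 tested, 11 fell, 3 rose and 2 did not pass (edgeR), with a median log2 fold change of -0.59, against -0.01 for all genes. Of all genes 21.4% were called lower and 20.6% higher. SIX3 (-1.26), INSM2 (-0.96) and KLF7 (-0.91) fell on the log2 scale. The 3 that rose were HEY1 (1.34), MYCN (0.39) and SOX4 (0.32), whose call was lost against 1.2-fold (edgeR glmTreat adjusted p = 0.226).

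Effector genes of the noradrenergic programme mostly fell. Of 13 tested, 9 fell, 1 rose and 3 did not pass (edgeR), with a median log2 fold change of -0.82, beside 21.4% of all genes called lower and 20.6% higher. CHGB, a granule protein gene, fell from 288 and 312 CPM to 37.3 and 35.8 CPM, and GCH1, which supplies the cofactor of tyrosine hydroxylase, from 93.0 and 95.5 CPM to 6.94 and 7.37 CPM. The receptor gene ALK (-2.13) and the noradrenaline transporter gene SLC6A2 (-1.13) fell on the log2 scale. The 1 that rose was TLX2, a homeobox gene downstream of PHOX2 factors in the neural crest, with 199 and 205 CPM against 323 and 335 CPM (log2 fold change 0.70, edgeR adjusted p = 1.62e-07).

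Regulators listed for the opposite, mesenchymal state moved both ways, with more called higher than lower. Of 23 listed, 19 were tested, 9 rose, 3 fell and 7 did not pass (edgeR; median log2 fold change 0.40), beside 20.6% of all genes called higher and 21.4% lower. ID1, an inhibitor of E proteins, rose from 19.0 and 17.7 CPM to 140 and 137 CPM, and SNAI2 (1.87) and MAML2 (0.94) rose on the log2 scale. TWIST1 (-0.75), RUNX1 (-1.60) and FOSL2 (-0.51) fell. PRRX1, a defining mesenchymal factor, had 0 counts in 3 libraries and 2 in IRF2BP2 shRNA replicate 2.

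**Figure D5:**
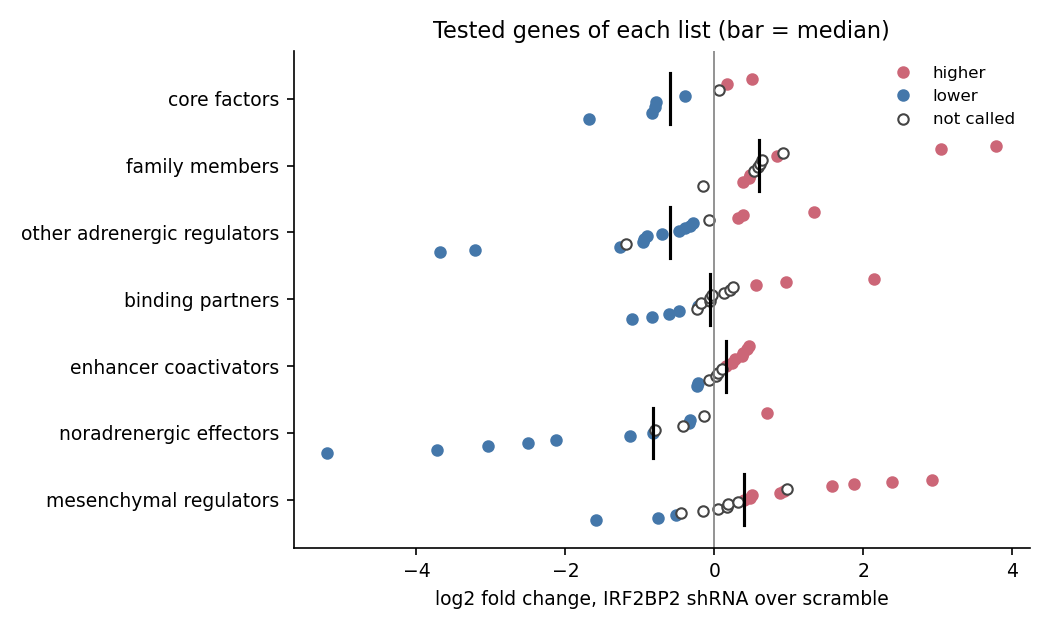
Log2 fold change (IRF2BP2 shRNA over scramble) of each tested gene in the core set and in 6 lists of related genes. Filled points passed the test (higher or lower), open points did not, and bars are medians, which are -0.59 for the core factors, -0.82 for noradrenergic effectors and 0.60 for family members.

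Among the regulators of these lists, the gene whose 4 centred log2 CPM values lay nearest to a factor was found by Euclidean distance over 4 libraries. ISL1 and TFAP2B were nearest to each other (distance 0.06, against a median of 1.15 from ISL1 to the 54 regulators compared). TBX2 lay nearest to TBX3 (0.08), GATA2 to GATA3 (0.11), HAND2 to SOX11 (0.07) and GATA3 to NOTCH3 (0.04). PHOX2A lay nearest to TWIST1 (0.06), a gene of the mesenchymal list. LMO1 had no near neighbour, with RUNX1 the closest at 0.62. With 4 libraries in 2 groups this likeness is mostly that of the fold changes.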

How the data were processed

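The authors deposited a table of raw gene counts with a column for each library. The submitters' processing notes name HISAT2 version 2.2.0 and build hg38, and the read counter and annotation behind the counts were not given in the sources used here. Libraries were made with a TruSeq RNA kit, per the labels' protocols. The control columns carry NC, an abbreviation absent from the labels, and were taken as the scramble libraries because the other columns carry IRF2BP2.

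The test was the two-sided robust quasi-likelihood F-test of edgeR 4.0.16 (R 4.3.3) after filterByExpr and TMM scaling. Benjamini-Hochberg adjustment covered all 19093 genes tested (threshold 0.05). Standard errors were obtained as the size of the log2 fold change over the square root of F. DESeq2 1.42.0 and limma 3.58.1 (voom) served as alternatives. In counts simulated with few changed genes, more of the calls were unchanged genes than the threshold aims at. Replicates differed by more than sampling noise (chi-square per degree of freedom 5.20 and 4.01). Total counts lay between 30847699 and 34684651. Counting intervals rest on the counts alone and do not cover other error, such as this spread between replicates. Symbols matched 40995 identifiers. Coordinates and exon lengths come from GENCODE release 29 on GRCh38, the same assembly as hg38, and promoters from RefSeq.

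The members and lists were chosen with earlier results of these data known. Named are the 8 members, IRF2BP2, tested genes overlapping a member on the opposite strand, up to 4 called genes per list with the smallest p, and each member's nearest regulator. Some genes this rule names are not reported here. Genes completing a count of 5 or fewer, TBX20, LMO4 and ISL1-DT, and genes set beside a named relative were chosen after their values were seen. Count ratios other than GATA2 to GATA3 and HAND2 to HAND2-AS1 were added after the values were seen. The comparison of protein sequences planned for the members was not made.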

Additional observations from a re-analysis of the deposited data

How the results depend on the processing

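Of 95 alternative values for the 8 factors, 93 kept their direction and their side of the threshold. The other 2 concern GATA2. Its log2 fold change was 0.171 and not called by edgeR glmTreat against 1.2-fold, and it lay between 0.144 and 0.205 when a library was left out, with the call lost without IRF2BP2 shRNA replicate 2. LMO1 was not tested with a mean of at least 10 CPM. Against 1.2-fold, 4233 genes and 2 enhancer coactivator genes were called, in place of 8016 and 9, since that test asks for larger changes. Without a library 6412 to 7477 genes and 6 or 7 of the 8 factors were called. GATA3-AS1 turned to -0.048 without scramble replicate 1 (0.179 without replicate 2). TBX2-AS1 turned to -0.011 with upper quartile scaling, -0.002 with a mean of at least 10 CPM and -0.062 without scramble replicate 1 (0.154 without replicate 2), and NOTCH3 to -0.005 with upper quartile scaling. None of these was called by edgeR, and the cause was not tested. With the replicate number as a block 7902 genes were called, and the block changed no call of a gene named here. Same-numbered libraries correlated in their deviations by 0.06, so the numbers were not taken to pair them. Low counts limit LMO1, GATA4, GATA6 and ENSG00000267131.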

Other observations

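General coactivators through which the circuit's enhancers act changed by small amounts. Of 13 tested, 7 rose, 2 fell and 4 did not pass (edgeR; median log2 fold change 0.15), beside 20.6% of all genes called higher and 21.4% lower. Against a null change of 1.2-fold 2 were called, both higher, and without IRF2BP2 shRNA replicate 1 the calls were 5 higher and 1 lower. The acetyltransferase gene CREBBP (0.39) and the kinase gene CDK12 (0.27) rose on the log2 scale, and the 2 that fell were BRD3 (-0.24) and MED12 (-0.22). Leaving out IRF2BP2 shRNA replicate 1 ended the call of MED12 (edgeR adjusted p = 0.0570). Against 1.2-fold the calls of CDK12, BRD3 and MED12 were lost (edgeR glmTreat adjusted p = 0.469, 0.789 and 0.867).

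Of 5 fibroblast marker genes, 4 were tested, and COL1A1 rose (log2 fold change 2.17) while LUM (-1.03), DCN (-1.30) and PDGFRB (-0.36) fell. COL1A2 was too low to be tested, with 8 and 10 counts with scramble and 0 in both IRF2BP2 shRNA libraries.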
